A study of Mus musculus with 12 samples.

Results

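Replication-dependent histone genes were examined as transcript clusters, the probe groups into which the Mouse Gene 1.0 ST array gathers its probes. A cluster was taken as a member when every gene symbol paired with it had a form used for replication-dependent histone genes. These forms, for histones H1, H2A, H2B, H3 and H4, were H1f1 to H1f6, H2ac, H2bc, H3c and H4c, formerly Hist1h to Hist4h. Of 28944 clusters on the array 23410 carried a symbol, and 44 of these were members. They fell into 5 clusters of H1, 4 of H2A, 9 of H2B, 13 of H3, 12 of H4, and 1 that carried both an H1 and an H2B symbol. Of the 44, 27 carried 1 symbol and 2 carried 2 symbols. The other 15 stood for many genes at once: 10 H3 clusters carried the same 12 symbols and 5 H4 clusters the same 11, so their signals cannot be assigned to single genes. A gene with a cluster of its own can also be among these symbols, as H3c4 is. A further 9 clusters, 7 of H2B and 2 of H2A, mixed such symbols with others and were left out by the rule.

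RNA came from bone-marrow pro-B cells of mice aged 1 month kept free of specific pathogens, with 4 arrays for each of 3 genotypes. Cd72+/-;Pax5+/- cells are heterozygous for both genes and are also called dual heterozygotes here, and Pax5+/- cells are heterozygous for Pax5. The labels call the cells of both groups preleukemic precursor B cells. WT pro-B cells are the common control. The study asks what heterozygous loss of Pax5, a transcription factor of B-lineage identity, and of Cd72, an inhibitory B-cell co-receptor, does in precursor B cells. Neither labels nor design text state which parts of the genes were deleted, the strain or the sorting scheme, and the labels do not state that replicates were separate animals. P-values here measure the spread between arrays, which may be technical.

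Histone proteins package DNA into nucleosomes, each a core of H2A, H2B, H3 and H4 with linker histone H1 bound outside. Replication-dependent histone genes lie in clusters of many near-identical copies and are transcribed mainly in S phase, when new DNA needs new nucleosomes. Their mRNAs typically have no introns and end in a stem-loop in place of a poly(A) tail. Members were taken by symbol, and whether each is made in this way was not tested. Pro-B cells include cycling precursors, and histone mRNA is degraded when DNA synthesis stops. In bulk samples, fewer cells of a type and less RNA per cell cannot be told apart.

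All values are log2 signals as deposited, in which a difference of 1 is a doubling. Array medians lay between 6.91 and 7.005. Pax5 read 11.11 to 11.31 in Cd72+/-;Pax5+/-, 10.65 to 11.21 in Pax5+/- and 11.4 to 11.72 in WT. Cd72 read 7.34 to 7.67 in dual heterozygotes, 10.03 to 10.27 in Pax5+/- and 8.43 to 9.39 in WT. Xist, expressed from the inactive X chromosome of female cells, was at 11.75 to 11.9 on the dual-heterozygous arrays, against 5 to 5.38 in Pax5+/- and 5.09 to 5.52 in WT, so genotype and sex cannot be told apart in either comparison with Cd72+/-;Pax5+/-. Arrays also fell into close pairs within groups. Over all clusters, the SD of the difference was 0.117 and 0.125 inside the pairs of Cd72+/-;Pax5+/- against 0.128 to 0.183 outside them, 0.122 and 0.177 against 0.195 to 0.281 in Pax5+/-, and 0.109 and 0.117 against 0.27 to 0.28 in WT. Each call is therefore given again with the closest pairs averaged to 1 unit, pairs that were themselves chosen from the values. Of the pro-B markers, the surrogate light chain genes Vpreb1 and Igll1 read 11.95 to 12.79 and 12.49 to 13.33 over the 12 arrays, while the mature B-cell marker Ms4a1 read 4.83 to 5.1. Vpreb1 read 12.54 and 12.7 in WT replicates 1 and 3 but 12.04 and 11.95 in replicates 2 and 4. Igll1 read 12.94 and 13.04 but 12.68 and 12.49. Other pro-B markers, named after their values were seen, also split the WT arrays by their close pairs. Dntt, the polymerase that adds bases at V(D)J joins, read 8.29, 8.52, 8.4 and 8.85 in dual heterozygotes, 10.82, 10.57, 10.61 and 10.54 in Pax5+/-, and 11.93, 9.76, 11.92 and 9.82 in WT. The recombinase gene Rag1 read 11.83 and 11.82 in WT replicates 1 and 3 but 10.6 and 10.71 in replicates 2 and 4, and the receptor gene Il7r read 12.47 and 12.44 but 11.12 and 11.07. Of 10 pro-B markers 1 rose and 1 fell in dual heterozygotes against WT (Ebf1 at 0.25 and Dntt at -2.34). In Pax5+/- against WT 2 rose, Ebf1 at 0.315 and Cd93 at 1.27, and 1 fell, Cd79a at -0.33. In dual heterozygotes against Pax5+/- 1 rose, Cd79a at 0.30, and 2 fell, Dntt at -2.12 and Cd93 at -0.85. Of 4 mature B-cell, 4 erythroid, 7 granulocyte and 6 T-cell markers 0 were called in any comparison (limma, unadjusted p under 0.05 for 1 erythroid marker in each of the comparisons with Pax5+/- arrays). Stromal and endothelial markers averaged 6.703 to 6.928 per array in dual heterozygotes, 7.002 to 7.916 in Pax5+/- and 7.314 to 7.826 in WT. Sparc and Cxcl12 fell in dual heterozygotes against WT, and Cxcl12 against Pax5+/-, 2 and 1 of 9 markers measured. By limma 5 of the 9 had an unadjusted p under 0.05 against WT, all lower, and 4 against Pax5+/-. Among the 5 were the collagen genes Col1a1 at -1.225 (adjusted p = 0.0992) and Col1a2 at -1.465 (adjusted p = 0.0631), named after their values were seen. The list's mean per array followed the close pairs, with 7.84 and 7.916 in Pax5+/- replicates 1 and 3 against 7.002 and 7.028 in replicates 2 and 4, and 7.826 and 7.817 in WT replicates 1 and 3 against 7.314 and 7.342 in replicates 2 and 4. The endothelial markers Kdr and Cdh5 and the stromal marker Lepr, also named after their values were seen, ranged from 4.76 for Lepr to 6.65 for Cdh5 over all arrays. The part of these cells in the histone results was not tested.

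Few histone clusters were called in any comparison of the 3 genotypes. Against WT, 3 of 44 were higher in Cd72+/-;Pax5+/- at a limma adjusted p under 0.05 and 0 were lower. Over all clusters tested, 4.12% were called higher and 3.66% lower in that comparison. Of the 44, 0 were called higher and 0 lower in Pax5+/- against WT, where 4.28% and 3.2% of all clusters were called. By limma 3 of the 44 had an unadjusted p under 0.05. In Cd72+/-;Pax5+/- against Pax5+/-, 3 were higher and 1 lower, where 4.44% and 5.35% of all clusters were called. The members' shares called, 6.82% against WT and 9.09% against Pax5+/- in both directions together, were near the 7.78% and 9.79% of all clusters and are no result about the family. Among the 29 clusters not widely shared they were 10.3% and 13.8%. Both comparisons with WT share the WT arrays, and both with Cd72+/-;Pax5+/- share those arrays. The median log2 change of the 44 was -0.027 in dual heterozygotes against WT, -0.026 in Pax5+/- against WT and -0.002 in dual heterozygotes against Pax5+/-, beside 0.002, -0.005 and 0.005 over all clusters. The median size of the change without its sign was 0.044, 0.035 and 0.03 in the same order, beside 0.07, 0.067 and 0.075 over all clusters. The 15 widely shared clusters, which lie near the highest signal on the array, lower these values: over the 29 others the median size was 0.087, 0.06 and 0.098, above that of all clusters in both comparisons with dual heterozygotes and below it in Pax5+/- against WT. Of those 29, 18, 19 and 15 changed by under 0.1. The clusters called were H2bc21, H2bc8 and H3c4, higher in both comparisons with dual-heterozygous arrays, and H4c3, lower than in Pax5+/-. With the closest pairs averaged, H2bc21 was the 1 member still called, while the calls over all clusters fell to 290, 282 and 420 of 23410 from 1821, 1749 and 2292.

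**Figure D1:**
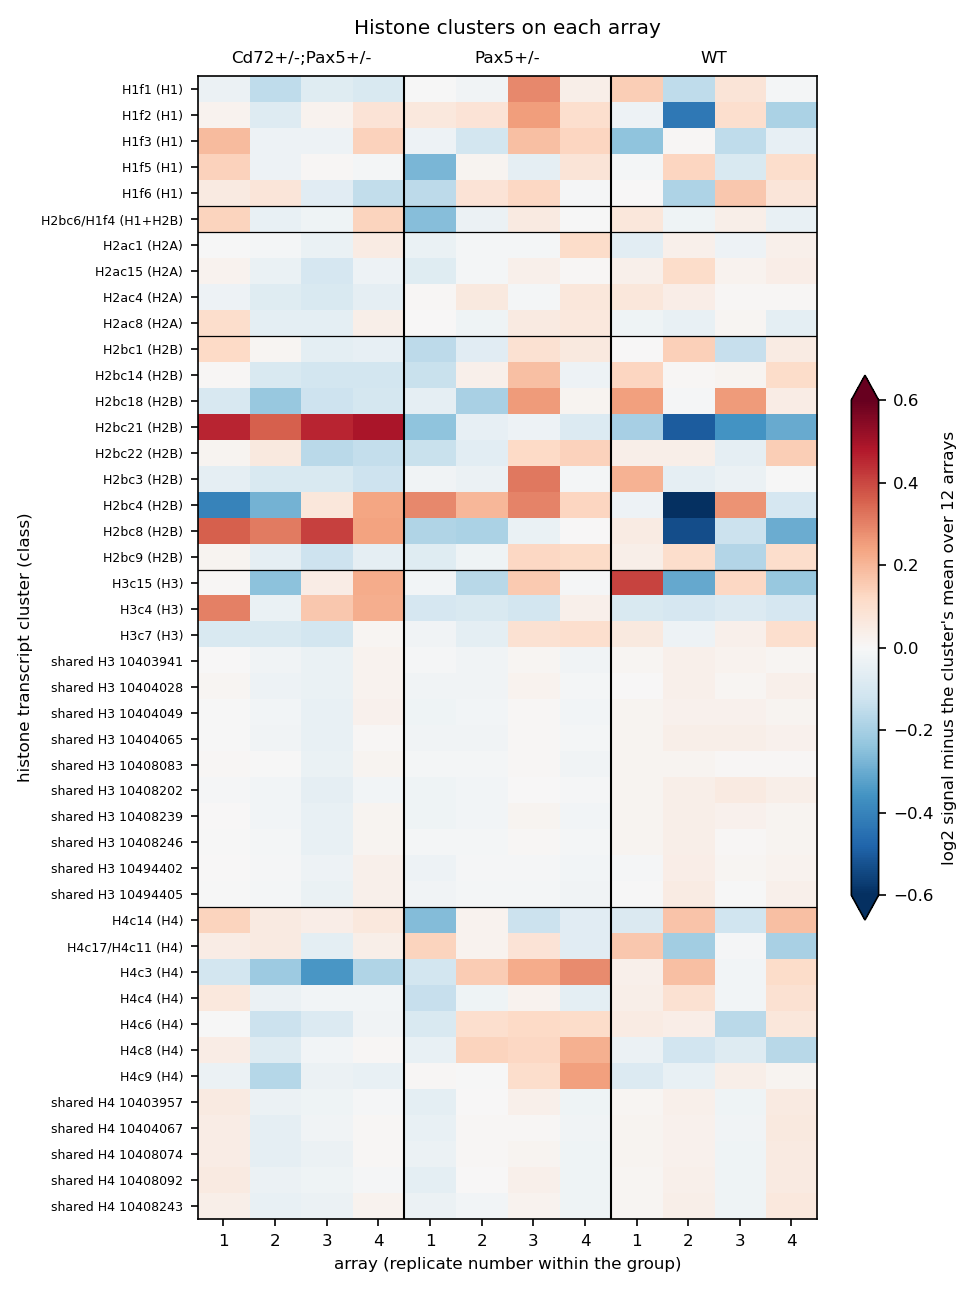
Deviation of each of the 44 histone clusters (rows, grouped by class) from its own mean over the 12 arrays, on the log2 scale, for the 4 arrays of Cd72+/-;Pax5+/-, Pax5+/- and WT (columns). H2bc21 and H2bc8 are red on all 4 Cd72+/-;Pax5+/- arrays, and the 15 shared H3 and H4 clusters are nearly white on every array.

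The linker histones, which bind DNA between nucleosomes, had 5 clusters of their own, and 0 were called in any comparison. Their median change was -0.007 in Cd72+/-;Pax5+/- against WT, 0.06 in Pax5+/- against WT and -0.03 in dual heterozygotes against Pax5+/-. H1f1 read 12.87, 12.75, 12.83 and 12.81 in dual heterozygotes, 12.9, 12.88, 13.19 and 12.94 in Pax5+/-, and 13.05, 12.75, 12.98 and 12.89 in WT. The dual-heterozygous arrays all lay below the Pax5+/- arrays and overlapped those of WT, and the difference from Pax5+/- was -0.16 (SE 0.0777, limma adjusted p = 0.245). H1f5 stayed between 11.97 and 12.38 on all 12 arrays. H1f2 and H1f3, named after their values were seen, differed from WT by 0.15 and 0.175 in dual heterozygotes and by 0.26 and 0.15 in Pax5+/-, with adjusted p from 0.143 to 0.458. H1f6 encodes the testis-specific linker histone H1t and was at 6.11 to 6.46 on all arrays. The cluster that carries both H1f4 and H2bc6 read 9.84 to 10.02 in dual heterozygotes, 9.63 to 9.94 in Pax5+/- and 9.84 to 9.95 in WT. The 95% intervals of the 5 H1 clusters reached from -0.271 to 0.353 in dual heterozygotes against WT, so changes within that range could not be told from none with these arrays.

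Of the 4 H2A clusters, 0 passed in any comparison, and each changed by under 0.1. H2ac4 read 13.05, 13.01, 12.99 and 13.03 in Cd72+/-;Pax5+/-, 13.09, 13.14, 13.07 and 13.15 in Pax5+/-, and 13.15, 13.12, 13.09 and 13.09 in WT. The dual-heterozygous arrays lay below all the others, by -0.09 against either group (SE 0.039, limma adjusted p = 0.206 against WT and 0.181 against Pax5+/-). H2ac15 was at 12.37 to 12.49 in dual heterozygotes, 12.4 to 12.5 in Pax5+/- and 12.49 to 12.58 in WT. H2ac1 encodes a testis-enriched H2A and lay between 9.3 and 9.47 on every array. The 95% intervals of the 4 clusters reached from -0.182 to 0.138 in dual heterozygotes against WT, from -0.154 to 0.155 in Pax5+/- against WT, and from -0.177 to 0.088 in dual heterozygotes against Pax5+/-.

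H2B had the largest differences among the 5 classes, through 2 of its 9 clusters. H2bc21 (transcript cluster 10494388, formerly Hist2h2be) encodes H2BE, an H2B variant studied in mouse olfactory neurons. H2bc21 is a member by symbol, and whether its mRNA is made mainly in S phase was not tested. It read 7.44, 7.34, 7.44 and 7.47 in Cd72+/-;Pax5+/-, 6.74, 6.93, 6.95 and 6.9 in Pax5+/-, and 6.78, 6.48, 6.62 and 6.68 in WT. Every Cd72+/-;Pax5+/- array lay above every array of the other groups, while Pax5+/- and WT overlapped. H2bc21 rose by 0.78 in dual heterozygotes against WT, 1.72-fold (SE 0.0677, limma adjusted p = 9.25e-06, with a two-sided exact permutation p of 0.0286, as small as 4 arrays against 4 allow). Against Pax5+/- it rose by 0.54, 1.46-fold (SE 0.0677, limma adjusted p = 0.000163). In Pax5+/- against WT the difference of 0.24 missed the threshold (adjusted p = 0.0515, exact permutation p = 0.0571). That difference was called in 7 of 20 alternatives, the looser threshold among them (limma adjusted p 0.0206 to 0.333 over the 20). With the closest pairs averaged both rises in dual heterozygotes were still called (adjusted p = 0.0179 and 0.0347). On chromosome 3, where RefSeq places this gene between H2ac20 and H3c15, lie 4 of the 27 genes with a cluster of their own (H2bc18, H2bc21, H3c15 and H4c14), of which H2bc21 was the 1 called. The other 23 lie on chromosome 13.

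H2bc8 (transcript cluster 10404036, formerly Hist1h2bg), a canonical H2B gene, read 10.04, 9.99, 10.09 and 9.92 in Cd72+/-;Pax5+/-, 9.5, 9.49, 9.64 and 9.68 in Pax5+/-, and 9.73, 9.15, 9.55 and 9.38 in WT. All 4 dual-heterozygous arrays lay above the others, and the WT arrays spread widest. H2bc8 rose by 0.56 in dual heterozygotes against WT, 1.47-fold (SE 0.102, limma adjusted p = 0.00415, exact permutation p = 0.0286). Against Pax5+/- it rose by 0.43, 1.35-fold (SE 0.102, adjusted p = 0.0168, exact permutation p = 0.0286). The difference between Pax5+/- and WT was 0.125 (adjusted p = 0.615). With the closest pairs averaged neither call held (adjusted p = 0.18 and 0.271), and without Cd72+/-;Pax5+/- replicate 3 the call against Pax5+/- ended (adjusted p = 0.0561).

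The promoter of H2bc8 is shown because it is shared with another histone gene whose signal can be set beside it across arrays. It is the RefSeq sequence of GRCm38.p6, chr13:23571150-23571399 on the plus strand, the 250 bases before the annotated start. Capitals mark the letters of the TATA box (TATAAA), of the CCAAT box and of the octamer bound by Oct factors (ATTTGCAT), on either strand.
H2bc8: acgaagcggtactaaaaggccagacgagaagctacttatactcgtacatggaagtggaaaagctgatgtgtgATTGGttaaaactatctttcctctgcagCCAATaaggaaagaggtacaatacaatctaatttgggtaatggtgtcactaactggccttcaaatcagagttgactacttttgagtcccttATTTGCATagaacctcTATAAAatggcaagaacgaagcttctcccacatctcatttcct
This window held 1 TATAAA starting 43 bases before the start, 1 octamer at 59 bases and 2 CCAAT. H2ac8, an H2A gene on the minus strand, starts 180 bases away and reads in the opposite direction, and the 300-base windows of the pair share 279 bases. H2ac8, named for this position, read 7.62, 7.46, 7.46 and 7.55 in Cd72+/-;Pax5+/-, 7.52, 7.49, 7.57 and 7.58 in Pax5+/-, and 7.49, 7.47, 7.53 and 7.46 in WT. Its groups overlapped, and its change was 0.04 in dual heterozygotes against WT (SE 0.0472, limma adjusted p = 0.786) and -0.02 against Pax5+/- (adjusted p = 0.888).

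The other 7 H2B clusters did not pass. H2bc18 read 11.82, 11.69, 11.79 and 11.81 in Cd72+/-;Pax5+/-, 11.86, 11.72, 12.17 and 11.93 in Pax5+/-, and 12.16, 11.91, 12.17 and 11.96 in WT. Its dual-heterozygous arrays all lay below those of WT, opposite in direction to H2bc21 and H2bc8, by -0.27 (SE 0.0901, limma adjusted p = 0.0956). H2bc14 read 12.66 to 12.78 in dual heterozygotes, 12.64 to 12.95 in Pax5+/- and 12.78 to 12.9 in WT. H2bc4, named after its values were seen, had the widest spread of the family. It read 6.42, 6.54, 6.89 and 7.06 in dual heterozygotes, 7.11, 7.02, 7.12 and 6.95 in Pax5+/-, and 6.79, 6.15, 7.09 and 6.72 in WT. The closest pairs of Cd72+/-;Pax5+/-, replicates 1 and 2 and replicates 3 and 4, differed in it by more than its difference from WT, 0.04. H2bc1 encodes a testis-enriched H2B and lay between 8.61 and 8.91 on all arrays. The 7 H2B clusters left out by the rule also carried other symbols. They and the 2 of H2A changed by -0.113 to 0.063 over the 3 comparisons, and 0 of the 9 was called.

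**Figure D2:**
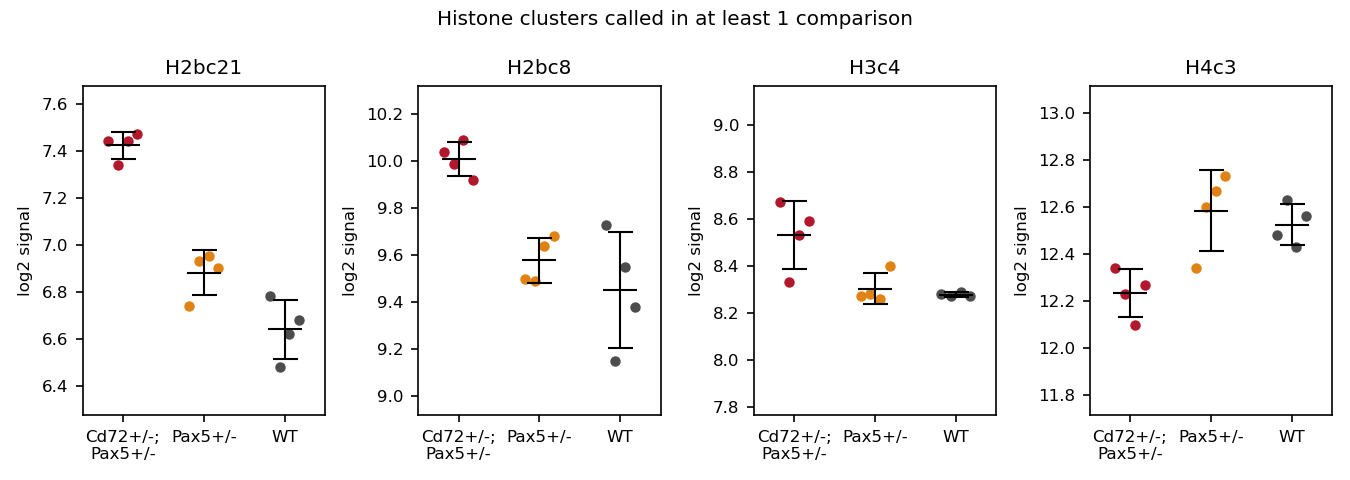
Log2 signal of the 4 histone clusters called in at least 1 comparison, with 1 point per array (replicates 1 to 4 from left to right) and bars for the mean and SD of the 4 arrays of Cd72+/-;Pax5+/-, Pax5+/- and WT. All panels span the same width of the log2 axis. H2bc21 and H2bc8 have all 4 Cd72+/-;Pax5+/- arrays above the rest, while H4c3 has a Pax5+/- array level with the highest Cd72+/-;Pax5+/- array at 12.34.

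Histone H3 is the core histone whose tail carries many of the marks of active and silent chromatin. The 10 shared H3 clusters lay between 14.13 and 14.39 on all 12 arrays, close to the highest signal of any cluster, 14.73. Their changes ran from -0.057 to -0.018 in Cd72+/-;Pax5+/- against WT, from -0.045 to -0.022 in Pax5+/- against WT and from -0.012 to 0.015 in dual heterozygotes against Pax5+/-. The 95% intervals reached at most from -0.135 to 0.093 over the 3 comparisons. Cluster 10404065, the shared H3 cluster with 14.34, 14.32, 14.3 and 14.35 in dual heterozygotes, read 14.32, 14.32, 14.35 and 14.33 in Pax5+/- and 14.36, 14.38, 14.38 and 14.37 in WT. Its WT arrays lay above the others, with changes of -0.045 in dual heterozygotes and -0.043 in Pax5+/- against WT (limma adjusted p = 0.574 and 0.624). Cluster 10494405 read 14.3 to 14.37 in dual heterozygotes, 14.32 to 14.33 in Pax5+/- and 14.34 to 14.39 in WT. Whether signals at this height can still rise with the amount of RNA was not tested.

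Of the 3 H3 genes with a cluster of their own, H3c4 was called. Its symbol is also among the 12 on each of the 10 shared H3 clusters. Of those, 0 were called, and they changed by -0.057 to -0.018 in dual heterozygotes against WT. H3c4 (transcript cluster 10404038, formerly Hist1h3d) read 8.67, 8.33, 8.53 and 8.59 in Cd72+/-;Pax5+/-, 8.27, 8.28, 8.26 and 8.4 in Pax5+/-, and 8.28, 8.27, 8.29 and 8.27 in WT. The dual-heterozygous arrays lay above those of WT without overlap, and replicate 2 of them lay below Pax5+/- replicate 4. H3c4 rose by 0.25 in dual heterozygotes against WT, 1.19-fold (SE 0.0653, limma adjusted p = 0.0331, exact permutation p = 0.0286), and by 0.23 against Pax5+/-, 1.17-fold (SE 0.0653, adjusted p = 0.0463, exact permutation p = 0.0571). Neither call held when close pairs were averaged (adjusted p = 0.201 and 0.22), and the call against WT ended without any 1 WT array (adjusted p from 0.0643 to 0.0716). Copies of histone genes are near-identical in sequence, so a cluster with 1 symbol may still take signal from other copies. H3c15 and H3c7 did not pass. H3c15, named after its values were seen, read 7.81, 7.56, 7.85 and 8.03 in dual heterozygotes, 7.79, 7.64, 7.96 and 7.8 in Pax5+/-, and 8.21, 7.5, 7.93 and 7.58 in WT, a spread within WT far above its differences between groups (0.007 and -0.008 against WT).

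The promoter of H3c4 is shown as that of a called H3 gene without an octamer (RefSeq, GRCm38.p6, chr13:23575513-23575762, plus strand, 250 bases before the start, capitals as above).
H3c4: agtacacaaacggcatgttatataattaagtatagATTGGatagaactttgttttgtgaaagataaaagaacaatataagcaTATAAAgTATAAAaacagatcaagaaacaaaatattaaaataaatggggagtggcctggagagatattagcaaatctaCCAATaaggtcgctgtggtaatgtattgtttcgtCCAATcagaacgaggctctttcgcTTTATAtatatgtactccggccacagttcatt
It held 3 TATAAA, the nearest 32 bases before the start, and 3 CCAAT, the nearest 56 bases before it. The octamer was found for 0 of the 10 H3 genes with a window.

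H4 is the most conserved core histone. The 5 shared H4 clusters lay between 14.04 and 14.27 on all arrays, and 2 of them had identical values on every array. Changes ran from -0.028 to -0.022 in Cd72+/-;Pax5+/- against WT, from -0.035 to -0.028 in Pax5+/- against WT and from 0 to 0.008 in dual heterozygotes against Pax5+/-, and no 95% interval reached beyond -0.123 or 0.097. Cluster 10404067 read 14.16 to 14.26 in dual heterozygotes, 14.17 to 14.22 in Pax5+/- and 14.19 to 14.27 in WT, and cluster 10408074 read 14.11 to 14.21, 14.13 to 14.18 and 14.14 to 14.22 in the same groups.

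H4c3 (transcript cluster 10408225, formerly Hist1h4c) was the 1 member called lower. It read 12.34, 12.23, 12.1 and 12.27 in Cd72+/-;Pax5+/-, 12.34, 12.6, 12.67 and 12.73 in Pax5+/-, and 12.48, 12.63, 12.43 and 12.56 in WT. The dual-heterozygous arrays lay below all WT arrays, and 1 of them was level with Pax5+/- replicate 1. H4c3 fell by 0.35 in dual heterozygotes against Pax5+/-, 1.27-fold lower (SE 0.0834, limma adjusted p = 0.0178, exact permutation p = 0.0571). Against WT the difference of -0.29 missed the threshold (SE 0.0834, adjusted p = 0.0543, exact permutation p = 0.0286). That difference was called in 5 of 20 alternatives, the looser threshold among them (limma adjusted p 0.0244 to 0.346 over the 20). Pax5+/- differed from WT by 0.06 (adjusted p = 0.806). The call against Pax5+/- ended when close pairs were averaged (adjusted p = 0.203), after quantile normalization (adjusted p = 0.131), and without Pax5+/- replicate 3, Pax5+/- replicate 4 or Cd72+/-;Pax5+/- replicate 3 (adjusted p = 0.0591, 0.0541 and 0.0618).

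The promoter of H4c3 is shown as that of the gene that moved the other way (RefSeq, GRCm38.p6, chr13:23698459-23698708, minus strand, 250 bases before the start, capitals as above).
H4c3: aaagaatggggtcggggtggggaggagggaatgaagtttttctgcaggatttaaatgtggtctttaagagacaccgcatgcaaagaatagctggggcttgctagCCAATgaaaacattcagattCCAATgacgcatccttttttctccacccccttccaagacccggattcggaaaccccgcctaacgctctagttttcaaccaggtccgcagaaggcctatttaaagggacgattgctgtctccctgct
It held 2 CCAAT, the nearest 126 bases before the start, and 0 TATAAA or octamers.

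The other 6 H4 clusters that were not widely shared did not pass. H4c8, named after its values were seen, came closest, at 10.33, 10.21, 10.27 and 10.29 in Cd72+/-;Pax5+/-, 10.24, 10.42, 10.41 and 10.5 in Pax5+/-, and 10.25, 10.17, 10.21 and 10.12 in WT. In Pax5+/- 3 of 4 arrays lay above all WT arrays, and the difference was 0.205 (SE 0.0575, limma adjusted p = 0.05, just outside the threshold). H4c14, also named after its values were seen, followed the pairs within WT, with 13.39 and 13.36 in replicates 1 and 3 and 13.65 and 13.66 in replicates 2 and 4. It read 13.61, 13.53, 13.52 and 13.54 in dual heterozygotes and 13.22, 13.5, 13.35 and 13.41 in Pax5+/-, a difference of 0.18 (adjusted p = 0.202).

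**Figure D3:**
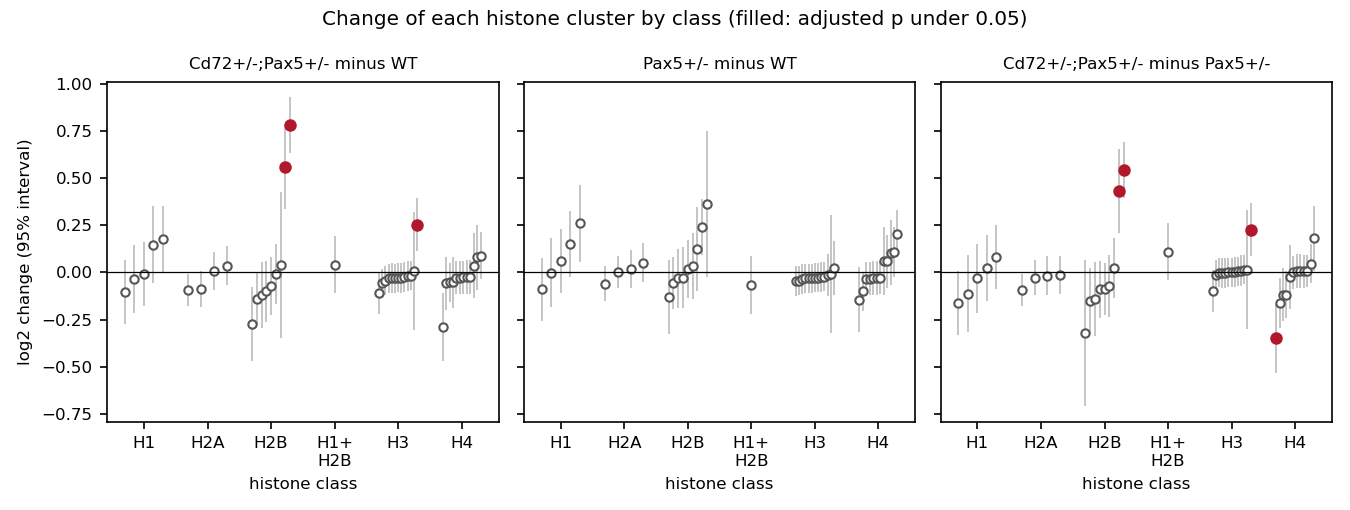
Log2 change of each histone cluster with its 95% interval, by class, in Cd72+/-;Pax5+/- minus WT, Pax5+/- minus WT and Cd72+/-;Pax5+/- minus Pax5+/-. Filled points had a limma adjusted p under 0.05; they number 3, 0 and 4 in the 3 panels, and the 15 shared H3 and H4 clusters form the rows of points close to 0.

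The median SD within groups was 0.0803 over the 44 clusters and 0.107 over the 29 not widely shared, beside 0.0982 over all clusters tested. Among those 29 the median change was -0.007 in Cd72+/-;Pax5+/- against WT, 0.02 in Pax5+/- against WT and -0.03 in dual heterozygotes against Pax5+/-.

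Promoter letters differed by class and were not used to choose the members. RefSeq windows were matched for 39 of the 44 genes named by the clusters. H2bc21 had no window, so its promoter is not shown. TATAAA occurred for 21 of 39 genes (53.8%), against 12.4% of all 32851 windows of the same length. CCAAT occurred for 29 of 39 (74.4%), against 33.8%. The histone shares count genes and the others count single windows. A gene with several windows was counted when any of them held the letters, as for the octamer of H2bc6. The octamer ATTTGCAT occurred in 9 of 39 (23.1%), against 1.6% of all windows. These were 6 of 8 H2B genes and 3 of 4 H2A genes, with 0 of 6 for H1, 0 of 10 for H3 and 0 of 11 for H4. CCAAT occurred for all 6 H1, 4 H2A and 8 H2B genes, for 8 of 10 of H3 and for 3 of 11 of H4. TATAAA occurred for 4 of 6 genes of H1, 3 of 4 of H2A, 4 of 8 of H2B, 4 of 10 of H3 and 6 of 11 of H4. Both strands were searched, and matches may overlap. These are matches of letters only, and neighbouring genes that are read apart share part of a window.

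Genes that make histone mRNA were measured beside the family. Npat, the coactivator that switches on histone genes at the start of S phase, read 9.48, 9.57, 9.62 and 9.66 in Cd72+/-;Pax5+/-, 9.75, 9.75, 9.85 and 9.73 in Pax5+/-, and 9.82, 9.83, 9.93 and 9.83 in WT. All 4 dual-heterozygous arrays lay below the others. Npat fell by 0.27 in dual heterozygotes against WT (SE 0.0508, limma adjusted p = 0.00503) and by 0.19 against Pax5+/- (adjusted p = 0.0348), with -0.08 in Pax5+/- against WT (adjusted p = 0.462). Slbp, which binds the stem-loop of histone mRNA, read 10.18 to 10.48 in dual heterozygotes, 10.05 to 10.59 in Pax5+/- and 10.36 to 10.75 in WT, and its change against WT of -0.24 and -0.21 did not pass (adjusted p = 0.324 and 0.43). Of 12 measured genes of histone mRNA production, 0 were higher and 1 lower in dual heterozygotes against WT, 0 and 0 in Pax5+/- against WT, and 0 and 2 in dual heterozygotes against Pax5+/-, the other being Cpsf2, a subunit of the cleavage complex, at -0.33 (adjusted p = 0.00461). Their median change was -0.094, -0.094 and -0.03 in the same order. The shares called were 8.33%, 0% and 16.7% of the 12, beside 7.78%, 7.47% and 9.79% of all clusters. Of 7 genes of histone mRNA decay, Eri1, the exonuclease that trims the stem-loop, fell by 0.26 in Pax5+/- against WT (adjusted p = 0.0139), and 0 were called in the other comparisons.

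S-phase genes, of the replication machinery and nucleotide supply, are active in the same phase as the histone genes. Of 24 measured, 5 fell and 0 rose in Pax5+/- against WT, with a median change of -0.189. The 44 histone clusters had a median of -0.026 and 0 calls, and the 29 not widely shared had a median of 0.02. The difference between the lists was not tested. The mean of the S-phase list was 10.216, 10.246, 10.276 and 10.348 on the arrays of Cd72+/-;Pax5+/-, 10.239, 9.979, 10.179 and 9.929 on those of Pax5+/-, and 10.321, 10.257, 10.314 and 10.262 on those of WT. Pax5+/- replicates 2 and 4, a close pair, stood below all other arrays, replicates 1 and 3 lay nearer to WT, and the same pairs differed in the stromal markers. Pcna, the sliding clamp of the polymerase, named after its values were seen, read 12.45 and 12.3 in Pax5+/- replicates 1 and 3 but 11.8 and 11.82 in replicates 2 and 4. The part of this split in the list's change was not tested. The number that fell in Pax5+/- against WT was 2 to 7 with each array left out in turn, 3 without Pax5+/- replicate 2, Pax5+/- replicate 4 or WT replicate 2, and 2 without WT replicate 4. Rrm2, a subunit of ribonucleotide reductase, read 10.58, 10.69, 10.61 and 10.65 in Cd72+/-;Pax5+/-, 10.05, 9.7, 9.92 and 9.62 in Pax5+/-, and 10.83, 10.67, 10.76 and 10.66 in WT. Every Pax5+/- array lay below every other array, and Rrm2 fell by 0.91 against WT (SE 0.0837, limma adjusted p = 1.49e-05). In Cd72+/-;Pax5+/- against Pax5+/-, 4 S-phase genes rose and 0 fell, with a median of 0.195, or 0.119 and 0.111 without Pax5+/- replicate 2 or 4. The number that rose was 2 without Cd72+/-;Pax5+/- replicate 4 and 3 to 6 without any other array. Among the 4 were Rrm2 at 0.81 (limma adjusted p = 3.18e-05), Uhrf1, which reads hemimethylated DNA behind the fork, at 0.315 (adjusted p = 0.00178), and the DNA polymerase subunit Pole at 0.20 (adjusted p = 0.0178). Against WT 1 rose and 1 fell in dual heterozygotes, the licensing factor Cdt1 at 0.39 and the helicase subunit Mcm4 at -0.20, with a median of 0.005. Of the 24, 20.8% were called in Pax5+/- against WT, beside 7.47% of all clusters. The shares were 16.7% beside 9.79% in dual heterozygotes against Pax5+/-, and 8.33% beside 7.78% against WT. Uhrf1 and the cyclin Ccne1 also fell in Pax5+/- against WT, by 0.27 and 0.43. With the closest pairs averaged, Rrm2 was the 1 gene of that list still called, in both comparisons with Pax5+/- arrays (adjusted p = 0.0456 and 0.0493).

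Replacement histones are made outside S phase as well, and their mRNAs can be polyadenylated. Whether the signals here came from mRNAs with or without a poly(A) tail was not tested. H2ax, the H2A variant phosphorylated at DNA breaks, read 9.81, 9.98, 9.96 and 10.2 in Cd72+/-;Pax5+/-, 9.53, 9.61, 9.23 and 9.47 in Pax5+/-, and 9.34, 9.31, 9.29 and 9.27 in WT. The dual-heterozygous arrays lay above all others. H2ax rose by 0.685 against WT (SE 0.0877, limma adjusted p = 0.000268) and by 0.53 against Pax5+/- (adjusted p = 0.00164). H2aj, another H2A variant, rose by 0.31 against WT (adjusted p = 0.0364) and by 0.375 against Pax5+/- (adjusted p = 0.00986). Of 9 replacement histones measured these were the 2 called in both comparisons, with 0 lower, and Macroh2a1, a macroH2A gene, was the 1 called in Pax5+/- against WT, at 0.22 (adjusted p = 0.0182). With the closest pairs averaged the rise of H2ax against WT held (adjusted p = 0.0459), its rise against Pax5+/- did not (adjusted p = 0.0775), and neither call of H2aj held.

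Histone chaperones carry new histones to DNA. Of 15 measured, Chaf1b, a subunit of the assembly factor CAF-1, rose by 0.28 (adjusted p = 0.037) and Supt16, a subunit of FACT, fell by 0.26 (limma adjusted p = 0.0452) in Cd72+/-;Pax5+/- against WT. In Pax5+/- against WT 1 fell, Nap1l4 at -0.215 (adjusted p = 0.0486), and 0 rose. In Cd72+/-;Pax5+/- against Pax5+/-, Chaf1a rose by 0.29 (adjusted p = 0.022) and Asf1b by 0.295 (adjusted p = 0.0479), and 0 fell. In the order of these comparisons, 13.3%, 6.67% and 13.3% of the chaperones were called, beside 7.78%, 7.47% and 9.79% of all clusters. With the closest pairs averaged, 1 gene stayed called in each comparison among all those of the lists that had been called, 11, 11 and 14 in number, marker lists included: H2ax in dual heterozygotes against WT, and Rrm2 in the other comparisons.

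**Figure D4:**
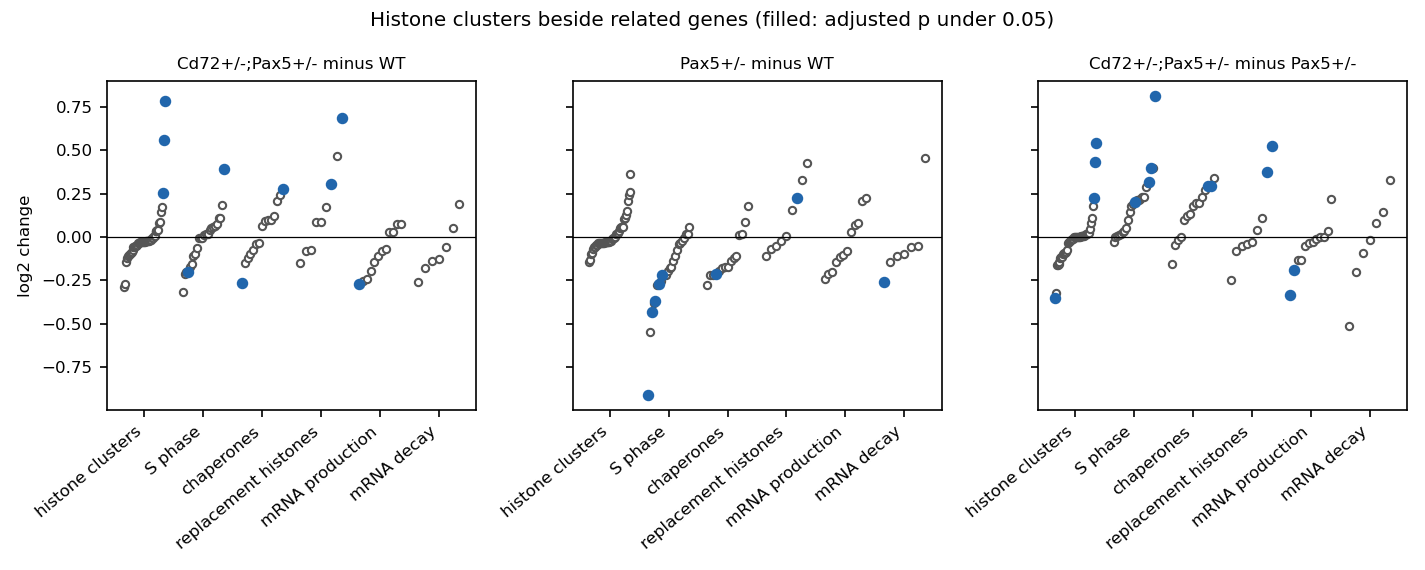
Log2 change of the 44 histone clusters and of 5 related gene lists (24 S-phase genes, 15 chaperones, 9 replacement histones, 12 genes of histone mRNA production, 7 of its decay) in Cd72+/-;Pax5+/- minus WT, Pax5+/- minus WT and Cd72+/-;Pax5+/- minus Pax5+/-, with 1 point per cluster or gene in rising order. Filled points had a limma adjusted p under 0.05; the lowest point in the middle panel is Rrm2 at -0.91, and the 15 widely shared histone clusters lie close to 0 in all panels.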

How the data were processed

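RNA of 12 samples, 4 in each of 3 groups, was hybridised to Affymetrix Mouse Gene 1.0 ST arrays. The authors deposited log2 signal values per transcript cluster, made with the Transcriptome Analysis Console per the submitters' processing notes. How signals were background-corrected and normalized, and the build, are steps not given in the sources used here. Groups were taken from the sample labels, replicates were numbered within groups and do not pair samples. Histone clusters were found by gene symbol in the platform annotation, and promoter windows came from RefSeq (GRCm38.p6). The number of arrays limits the precision.

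With limma 3.58.1 (R 4.3.3) group means were fitted to all 23410 clusters with a symbol (9 residual and 3.28 prior degrees of freedom), with no filter on signal. Calls were made at an adjusted p under 0.05 (Benjamini-Hochberg over all clusters). Exact permutation tests were two-sided. The fit was tested on simulated data with independent noise on each array, so its error rates under close pairs were not tested. Python 3.11.15, pandas 2.3.3 and matplotlib 3.10.9 served for promoters and figures.

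Members and the 11 lists (6 of cell-type markers, 5 of related genes) were chosen with earlier results of these data known. Named were up to 4 called clusters and the 2 brightest uncalled ones per class, up to 3 called genes per list and comparison, Pax5, Cd72, Slbp and Npat; other names were chosen after values were seen. Alternatives were another normalization, medians made equal, a filter on dim clusters, all clusters, another prior, fewer groups, array weights, a looser threshold, paired arrays, other member sets and each array left out.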

Additional observations from a re-analysis of the deposited data

Results flagged for a closer look

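Of 51 sets of 4 arrays examined, 4 held an array set apart from the others by a gap above Dixon's 95% critical value, and chance flags about 1 in 20. For H3c4, Pax5+/- replicate 4 read 8.4, where the other Pax5+/- arrays read 8.26 to 8.28. For H2bc14, Cd72+/-;Pax5+/- replicate 1 read 12.78, where the other Cd72+/-;Pax5+/- arrays read 12.66 to 12.68. For Npat, Pax5+/- replicate 3 read 9.85 against 9.73 to 9.75 on the other Pax5+/- arrays, and WT replicate 3 read 9.93 against 9.82 to 9.83 on the other WT arrays.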

How the results depend on the processing

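No result changed direction among those called. H2bc21 was called in both comparisons with Cd72+/-;Pax5+/- under all 20 alternatives run for it (limma adjusted p 2.72e-06 to 0.0179 against WT, 5.59e-05 to 0.0347 against Pax5+/-). H3c4 lost its call in 12 of 20 against WT and 12 of 20 against Pax5+/-; the cause was not tested. Clusters called higher in Pax5+/- against WT numbered 1 with quantile normalization, 1 with the filter on dim clusters, which removed 1 member, 1 with a trended robust prior, 2 at an adjusted p under 0.1, 2 with array weights, and 0 to 2 with each array left out. Those called lower in Cd72+/-;Pax5+/- against WT numbered 1 with medians made equal, 1 with the dim filter, and 2 each with only the compared groups, an adjusted p under 0.1 and array weights. Averaging the closest pairs, which leaves fewer units, gave 1 higher in Cd72+/-;Pax5+/- against WT and 1 higher and 0 lower against Pax5+/-. As a random block (correlation 0.427) they gave 1 higher and 0 lower against Pax5+/-. Quantile normalization gave 0 lower there, and leaving out each array gave 1 to 3 higher and 0 to 1 lower. The median change against Pax5+/- was 0.028 with medians made equal, -0.073 over members with 1 symbol and -0.027 with 1 value per gene or shared set. The median in Pax5+/- against WT was 0.02 and 0.017 in those last settings. Over all clusters the random block called 1031 in Cd72+/-;Pax5+/- against WT, 1133 in Pax5+/- against WT and 1398 in Cd72+/-;Pax5+/- against Pax5+/-. No paired analysis was possible because the labels number the samples from 1 to 12 without shared numbers between groups.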
